A study of Mus musculus with 12 samples.

Results

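The genes described here are 37 interferon stimulated genes, a named list of transcripts that type I interferon is known to switch on. Their RNA was read by sequencing in T cells of mouse spleen. They were found by symbol in a table of 53762 gene symbols, by a rule that uses no measured value, although the list was drawn up with earlier results of these data known. All 37 were in the table, and all 37 were among the 16945 genes that passed the filter on low counts. Before RNA isolation the T cells had shared their culture with a second population, named Res in the labels, for 24 h or 48 h. This population was Res_ctrl (here the control partner) or Res_shFabp7, named for a short hairpin RNA to Fabp7 (here the shFabp7 partner), and the study asked how T cell expression differs between them. Either partner at either time makes 4 groups, each of 3 libraries. The labels give spleen as the tissue and T cell as the cell type for all 12 libraries, and give no strain, age, genotype, purity of the T cells, hairpin sequence or origin of the Res cells.

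Type I interferons, the many interferon alphas and interferon beta, bind a receptor made of Ifnar1 and Ifnar2. The kinases Jak1 and Tyk2 then phosphorylate factors such as Stat2, which acts with Irf9 in a complex that binds the interferon stimulated response element of target promoters. The targets include sensors of foreign nucleic acid, enzymes and binding proteins that block viral RNA, and feedback inhibitors. Interferon gamma, which activated T cells secrete, signals through another receptor, and many genes respond to both kinds of interferon.

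Library totals ran from 31952873 to 40638685 counts, and replicates differed beyond counting noise in every group (chi-square per degree of freedom 4.34 to 14.2). No label ties a replicate to its own culture or animal, and every p-value therefore reflects the spread among these libraries alone, possibly a technical one. Levels are given as CPM (counts relative to the library total, scaled by TMM), and fold changes as log2 values ± SE. A gene was called when edgeR's quasi-likelihood test gave a Benjamini-Hochberg adjusted p under 0.05 over all 16945 genes, and every adjusted p below is from this test unless another is named. The T cell label held: the 6 markers Cd3e, Cd3d, Cd3g, Cd2, Cd5 and Lck summed to 1949 to 2056 CPM at 24 h and to 1415 to 1495 CPM at 48 h.

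The response element is the sequence feature such genes are known for, so promoters were searched on both strands for its core, GAAA, any 2 bases and GAAA again, in the window from 250 bases before to 50 bases after each RefSeq gene start (build GRCm38.p6). RefSeq promoters were matched for 27 of the 37 members. The letters were found for 14 of these 27 (51.9%), against 3.44% of all 32851 promoters in the same window and 3.87% of the tested genes that have one. A second motif, the gamma activated sequence TTCNNNGAA, was found for 6 of 27 members (22.2%). It was found in 8.30% of all promoters and for 8.28% of the tested genes that have one. Of the 6 matches of the second motif, 1 shared bases with a match of the first, in Bst2. The stretches below show the matches (capitals) of some of these members, with up to 30 bases on either side, 5′ to 3′ on the gene's strand. They let the element be seen in members of different roles. Matches that start with TTTC are those of the opposite strand. Isg15 (chr4:156200845-156200926, minus strand) held 3 overlapping matches, Oas1a (chr5:120907526-120907575, minus) and Bst2 (chr8:71537557-71537632, minus) 2 overlapping ones each. Ifit1 (chr19:34640755-34640843, plus) and Ddx60 (chr8:61928004-61928086, plus) had 2 separate matches, and Stat2 (chr10:128270248-128270315, plus) and Trim30a (chr7:104465194-104465259, minus) 1 each. A further Trim30a match, at another of its RefSeq starts, lay past that start and is not shown. The only matches of Ifih1 and Eif2ak2 also lay past the start and are not shown. Matches before the start in Oas3, Slfn5 and Rsad2 are not shown either. Ifit3 (chr19:34583343-34583446, plus) and Ifit3b (chr19:34607739-34607842, plus) carried the same 104 bases. Compared without gaps over 268 bases of their windows, these promoters were identical at 201 (75%).
Isg15: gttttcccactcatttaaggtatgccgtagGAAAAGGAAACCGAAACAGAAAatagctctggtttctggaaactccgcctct
Oas1a: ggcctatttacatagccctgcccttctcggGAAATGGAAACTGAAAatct
Bst2: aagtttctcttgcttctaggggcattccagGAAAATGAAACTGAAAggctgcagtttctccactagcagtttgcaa
Ifit1: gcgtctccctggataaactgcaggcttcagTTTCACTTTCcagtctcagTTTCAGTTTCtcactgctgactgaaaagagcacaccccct
Ifit3: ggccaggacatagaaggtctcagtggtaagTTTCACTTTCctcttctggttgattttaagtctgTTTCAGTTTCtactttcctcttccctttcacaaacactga
Ifit3b: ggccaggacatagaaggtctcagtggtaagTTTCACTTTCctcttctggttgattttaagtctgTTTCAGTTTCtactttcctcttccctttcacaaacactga
Ddx60: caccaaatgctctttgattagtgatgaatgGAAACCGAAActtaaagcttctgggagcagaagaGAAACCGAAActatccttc
Stat2: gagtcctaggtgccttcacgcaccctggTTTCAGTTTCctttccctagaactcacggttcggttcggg
Trim30a: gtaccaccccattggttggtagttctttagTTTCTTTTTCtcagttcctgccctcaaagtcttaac

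A match is a description of the letters only. From 24 h to 48 h with the control partner, the 14 members with a match had a median log2 fold change of -0.86, and the 13 without one a median of -1.05, each spanning several log2 units (-2.54 to 0.79 and -2.42 to -0.51).

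The members spanned a wide range of levels. Per kilobase of exon, Ifi27l2a was highest in the control group at 24 h, at 134 ± 23.7 CPM per kb (SD, n = 3), followed by Slfn1 at 132 ± 11.7 and Bst2 at 104 ± 3.21. The first pair of that order did not differ beyond their spread. At the other end, Oasl1 stood at 0.692 ± 0.101 CPM per kb, Oasl2 at 0.877 ± 0.220 and Rsad2 at 1.01 ± 0.637, again within their spread. By 48 h with the control partner Ifi27l2a was at 149.6 ± 28.6 CPM per kb and Slfn1 at 38.5 ± 0.965, so this neighbouring pair had moved apart. The lowest count of any member in any library was 23, for Oasl1.

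Between 24 h and 48 h of co-culture most members fell. With the control partner 30 of 37 fell and 1 rose, and with the shFabp7 partner 30 fell and 2 rose, whereas 32% and 30.2% of all tested genes were called lower and 35.8% and 35.9% higher (67.7% and 66.1% in either direction). In total 29 members fell with both partners, and Eif2ak2 rose with both. The median log2 change was -0.88 in the control group and -0.81 in the shFabp7 group, beside 0.04 and 0.06 over all genes. A fall of at least 2-fold was called for 15 members in the control group and 13 in the shFabp7 group, 11 of them shared, against 5.18% and 4.34% of all genes. In 30 members with each partner, every library at 48 h was lower than every library at 24 h, a separation seen in 32% and 32.9% of all genes. Scaling by library totals alone moved the all-gene medians to 0.23 and 0.21, and the members' medians to -0.69 and -0.66, with 28 members lower for each partner. In bulk RNA, fewer cells expressing a gene and less of its RNA per cell cannot be told apart. The T cell markers moved as well, 4 of 6 lower and 1 higher with each partner (medians -0.41 and -0.44), and their part in the members' fall was not tested.

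**Figure D1:**
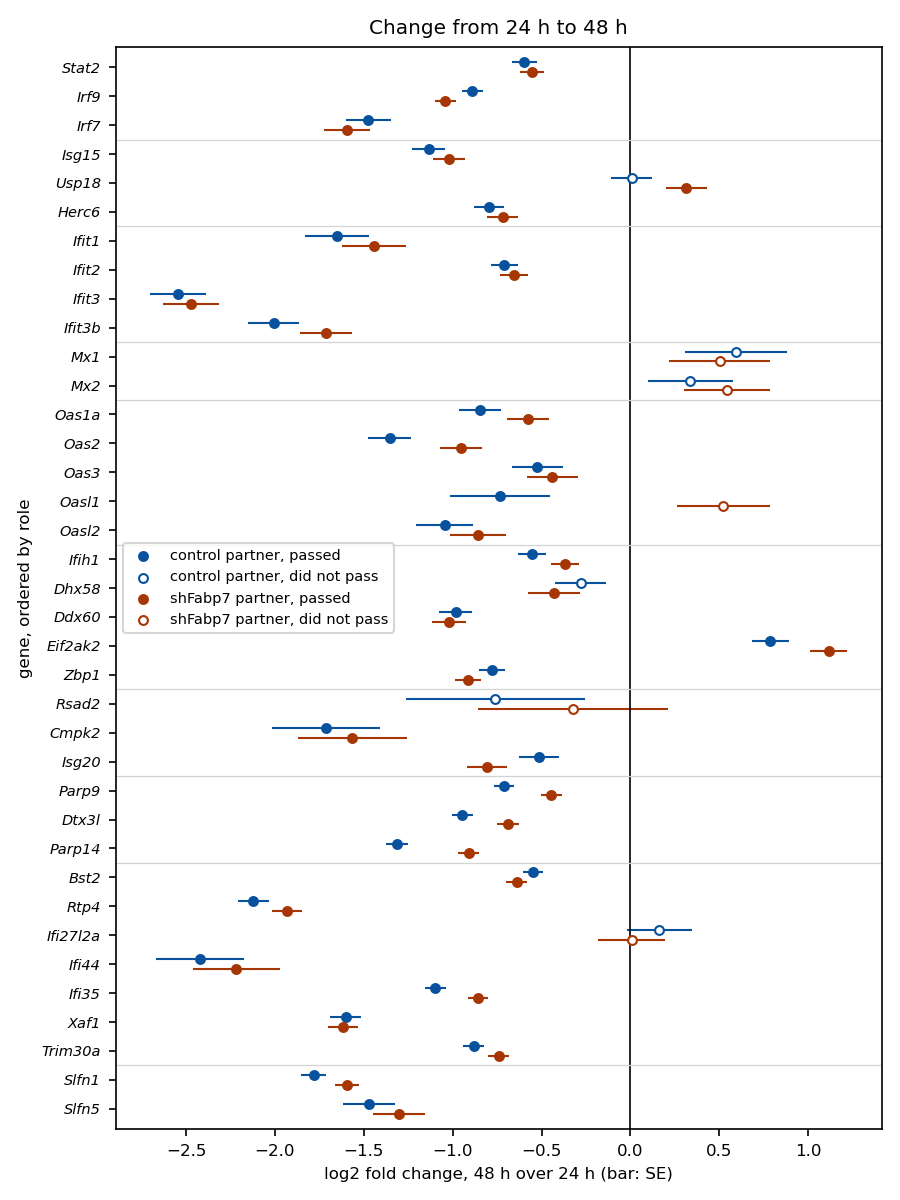
Log2 fold change from 24 h to 48 h for each of the 37 members with the control and the shFabp7 partner, with error bars of 1 SE. Points left of 0 are lower at 48 h: 30 members were called lower with each partner, Eif2ak2 lies to the right with both, and Ifit3 and Ifi44 lie farthest to the left.

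The partner had a smaller and mixed effect. At 24 h the shFabp7 partner gave 1 member higher (Bst2) and 5 lower (Ifit2, Parp9, Dtx3l, Parp14 and Trim30a), 6 of 37, where 10.9% of all genes were called, 6.22% higher and 4.65% lower. At 48 h 5 members were higher (Oas2, Oasl1, Eif2ak2, Parp14 and Ifi35) and 2 lower (Irf9 and Ifit2), 7 of 37, where 31.6% of all genes were called, 19.9% higher and 11.6% lower. The members' medians were -0.08 and 0.04 on the log2 scale, beside 0.00 and 0.01 for all genes. Ifit2 was lower at both times, Parp14 lower at 24 h and higher at 48 h, and 26 members were called at neither time. All 37 members differed by less than 1 log2 unit at 24 h, and 36 by less than 0.5 at 48 h, Oasl1 being the exception. The libraries of the groups overlapped in 35 members at 24 h and 19 at 48 h, and separation in either direction was seen in 27.5% and 44% of all genes. The split at 48 h moved with the scaling, as it did for all genes. Upper-quartile scaling gave 2 members higher and 6 lower, and library totals alone 2 higher and 5 lower. Over all genes the main scaling gave 3380 higher and 1972 lower, upper-quartile scaling 2125 and 3195, and library totals alone 2157 and 3168, and the all-gene median went from 0.01 to -0.07 with either. At 24 h both scalings gave 1 higher and 5 lower.

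**Figure D2:**
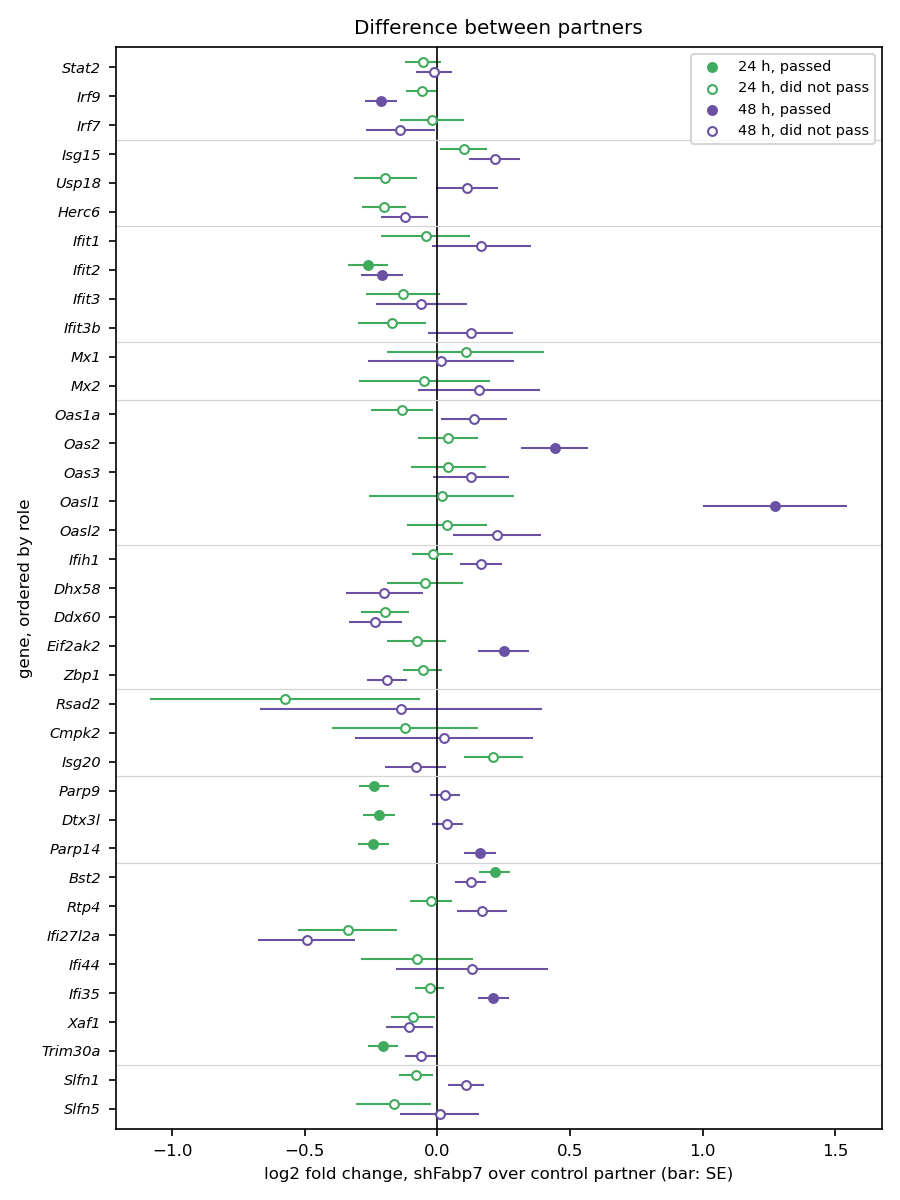
Log2 difference between partners (shFabp7 minus control) at 24 h and at 48 h for each of the 37 members, with error bars of 1 SE. Most points lie close to 0 at both times; Oasl1 at 48 h (1.27) lies farthest from it.

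The signalling factors all fell over time. Stat2, a subunit of the interferon activated complex, was at 245, 209 and 252 CPM with the control partner at 24 h and at 170, 149 and 148 at 48 h. With the shFabp7 partner it was at 221, 211 and 247 CPM, then 150, 150 and 162. All libraries at 48 h were below all libraries at 24 h, with changes of -0.60 ± 0.07 (adjusted p = 2.43e-08) and -0.55 ± 0.07 (adjusted p = 9.35e-08), while the partners overlapped at both times.

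Irf9, the DNA-binding subunit of the complex, was at 123, 115 and 129 CPM in the control group and 111, 115 and 127 in the shFabp7 group at 24 h. At 48 h it was at 68.5, 63.5 and 66.7 CPM in the control group and at 53.6, 58.6 and 59.3 in the shFabp7 group. The 24 h libraries overlapped and the 48 h libraries did not: Irf9 was lower with the shFabp7 partner at 48 h by -0.21 ± 0.06 (adjusted p = 0.00583). That call was lost when shFabp7 48 h replicate 1 was left out (adjusted p = 0.061). Over time Irf9 fell by 0.89 and 1.04 log2 units.

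Irf7, the factor that amplifies interferon alpha production, fell from 116, 106 and 128 CPM to 46.0, 37.7 and 42.1 with the control partner. With the shFabp7 partner it went from 102, 106 and 136 CPM to 33.6, 39.7 and 41.1. The fall was 1.47 log2 units (adjusted p = 8.68e-07) for the control and 1.59 for the shFabp7 partner, and the partners overlapped at both times (log2 differences -0.02 ± 0.12 and -0.14 ± 0.13).

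Of the genes of ISG15 conjugation, in which the small protein Isg15 is attached to other proteins, Isg15 and Herc6 fell with both partners. Isg15 was at 39.3, 40.7 and 46.3 CPM in the control group and 40.8, 41.1 and 53.1 in the shFabp7 group at 24 h. At 48 h the values were 21.4, 17.6 and 18.5, and 21.4, 22.8 and 22.6. The times did not overlap, with falls of 1.14 and 1.02 log2 units, and the difference between partners at 48 h, 0.22 ± 0.09, missed the threshold (adjusted p = 0.0874). Usp18, which removes Isg15 and also dampens the interferon receptor, was at 46.7, 46.6 and 57.9 CPM with the control partner at 24 h and at 49.4, 53.1 and 49.4 at 48 h. With the shFabp7 partner it was at 37.2, 40.5 and 54.0, then 53.9, 55.2 and 55.1. Its times overlapped with both partners, and the rise called with the shFabp7 partner (0.32 ± 0.12, adjusted p = 0.0309) was called in 1 of 6 fits that each left out 1 library, the one without shFabp7 24 h replicate 3 (adjusted p up to 0.138 in the others). Herc6, an Isg15 ligase in mouse, fell by 0.79 and 0.72 log2 units.

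The IFIT proteins bind viral RNA that lacks the marks of host messages, and all 4 fell with both partners. Ifit3, chosen here after its values were seen as the largest fall, was at 86.8, 85.0 and 99.3 CPM with the control partner at 24 h and at 15.5, 14.8 and 16.1 at 48 h. With the shFabp7 partner it was at 71.9, 72.0 and 103, then 13, 14.9 and 16.9. Every library at 24 h stood more than 4-fold above every library at 48 h, and the log2 changes were -2.54 ± 0.16 (adjusted p = 9.89e-08) and -2.47 ± 0.16 (adjusted p = 1.45e-07). Ifit3b, whose promoter stretch is the same as that of Ifit3, changed by -2.01 ± 0.14 and -1.71 ± 0.14, and Ifit1 by -1.65 ± 0.18 and -1.44 ± 0.18. Reads that the near-identical Ifit3 and Ifit3b share could have been split or dropped in the counting, so their separate values are uncertain.

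Ifit2 was the member called lower with the shFabp7 partner at both times. It stood at 81.1, 77.5 and 83.4 CPM in the control group and 61.8, 59.6 and 80.2 in the shFabp7 group at 24 h. By 48 h it was at 46.2, 50.4 and 51.4, against 41.8, 42.8 and 43.5. The groups overlapped at 24 h, through shFabp7 replicate 3, and did not at 48 h. The differences were -0.26 ± 0.08 (adjusted p = 0.0279) and -0.21 ± 0.08 (adjusted p = 0.0454). At 24 h the call was lost without replicate 1 or 3 of the control or replicate 1 or 2 of the shFabp7 partner (adjusted p up to 0.209), and at 48 h it was kept only without control replicate 1 (up to 0.16 otherwise). The 24 h call of Ifit2 was also lost when the compared groups were fitted alone, the 48 h call with RLE scaling and DESeq2, and both with a minimum fold of 1.2.

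The Mx proteins, GTPases that trap viral nucleoproteins, were not called over time with either partner. Mx2 was at 10.1, 9.20 and 15.5 CPM in the control group and 8.81, 9.82 and 14.8 in the shFabp7 group at 24 h. The 48 h values were 13.9, 14.8 and 15.2, and 14.2, 15.4 and 19.5. The groups overlapped in both partner comparisons. The changes over time, 0.34 ± 0.24 (adjusted p = 0.241) and 0.54 ± 0.24 (adjusted p = 0.0727), were not called. Mx1 gave 0.59 ± 0.29 and 0.50 ± 0.29, also not called.

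The OAS enzymes make the 2′-5′ linked oligoadenylates that activate RNase L, and Oasl1 and Oasl2 are related proteins. Oasl1 showed the largest partner effect of all members. With the control partner it was at 1.84, 1.52 and 2.05 CPM at 24 h and at 1.72, 0.978 and 0.579 at 48 h. Values with the shFabp7 partner were 1.57, 1.41 and 2.46, then 2.68, 2.15 and 3.02. The partners overlapped at 24 h and did not at 48 h, where 124 counts in the control libraries stood against 298 in the shFabp7 libraries. The difference was 1.27 ± 0.27 at 48 h (adjusted p = 0.000513), called in all 6 fits without 1 library (adjusted p up to 0.00739), and 0.02 ± 0.27 at 24 h. The difference between these effects, 1.26 ± 0.39, missed the threshold (adjusted p = 0.0505). The control libraries at 48 h spanned 0.579 to 1.72 CPM, and the fall over time with the control partner (-0.73 ± 0.28, adjusted p = 0.0235) was lost in 4 of 6 fits without 1 library (adjusted p up to 0.181), those without control 24 h replicate 1 or 3 or control 48 h replicate 2 or 3.

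Oas2 was at 25.4, 20.6 and 23.0 CPM in the control group and at 20.7, 20.5 and 29.5 in the shFabp7 group at 24 h. By 48 h it was at 9.84, 9.13 and 8.01, and at 12.1, 11.4 and 13.2. The 48 h groups did not overlap, and the difference was 0.44 ± 0.13 (adjusted p = 0.0094), lost without control 48 h replicate 3 (adjusted p = 0.0615). Over time Oas2 fell by 1.35 and 0.95 log2 units. Oas1a, Oas3 and Oasl2 fell with both partners by 0.44 to 1.05 log2 units, and none of them was called between partners. For Oas3 the fall was lost when library totals alone were used (adjusted p = 0.0611 and 0.0996).

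Among the sensors of nucleic acids, Eif2ak2 (the RNA-activated kinase PKR) went against the others. It was at 11.8, 9.56 and 11.6 CPM in the control group and 10.4, 8.42 and 12.2 in the shFabp7 group at 24 h. At 48 h it reached 17.7, 18.3 and 20.8, and 23.7, 22.4 and 21.3. All 48 h libraries were above all 24 h libraries, with rises of 0.79 ± 0.10 (adjusted p = 5.79e-08) and 1.12 ± 0.10 (adjusted p = 5.73e-11). The partner difference at 48 h, 0.25 ± 0.10 (adjusted p = 0.0487), was kept in 1 of 6 fits without 1 library, the one without control 48 h replicate 3 (adjusted p up to 0.177 in the others), and was lost with upper-quartile scaling and with library totals alone. Ifih1 (MDA5, a sensor of long double-stranded RNA), the helicase Ddx60 and Zbp1, a sensor that can trigger cell death, fell with both partners by 0.37 to 1.02 log2 units. Dhx58 (LGP2) changed by -0.28 ± 0.14 with the control partner, which was not called, and by -0.43 ± 0.15 with the shFabp7 partner (adjusted p = 0.0188). None of these 4 was called between partners in the main fit, with the nearest at an adjusted p of 0.0553 (Zbp1, -0.19 ± 0.07 at 48 h, with the groups apart). Of 9 other settings of scaling, filter or model at 48 h, 6 called Zbp1 lower, 5 Ddx60 and 2 Dhx58. The Eif2ak2 call was kept in 5 of the 9.

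Rsad2 (viperin) makes a chain-terminating nucleotide and Cmpk2 is its neighbour that supplies nucleotides. Rsad2 was at 2.21, 3.40 and 7.48 CPM in the control group and 1.57, 2.38 and 4.81 in the shFabp7 group at 24 h. It was at 3.13, 2.52 and 2.12, and at 2.14, 2.97 and 1.97, at 48 h. All 4 groups overlapped, the 24 h replicates spanned more than 3-fold, and no comparison was called. Cmpk2 fell by 1.71 ± 0.30 and 1.56 ± 0.31 log2 units. Isg20, an RNA exonuclease, fell by 0.51 and 0.81 log2 units, and neither was called between partners.

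**Figure D3:**
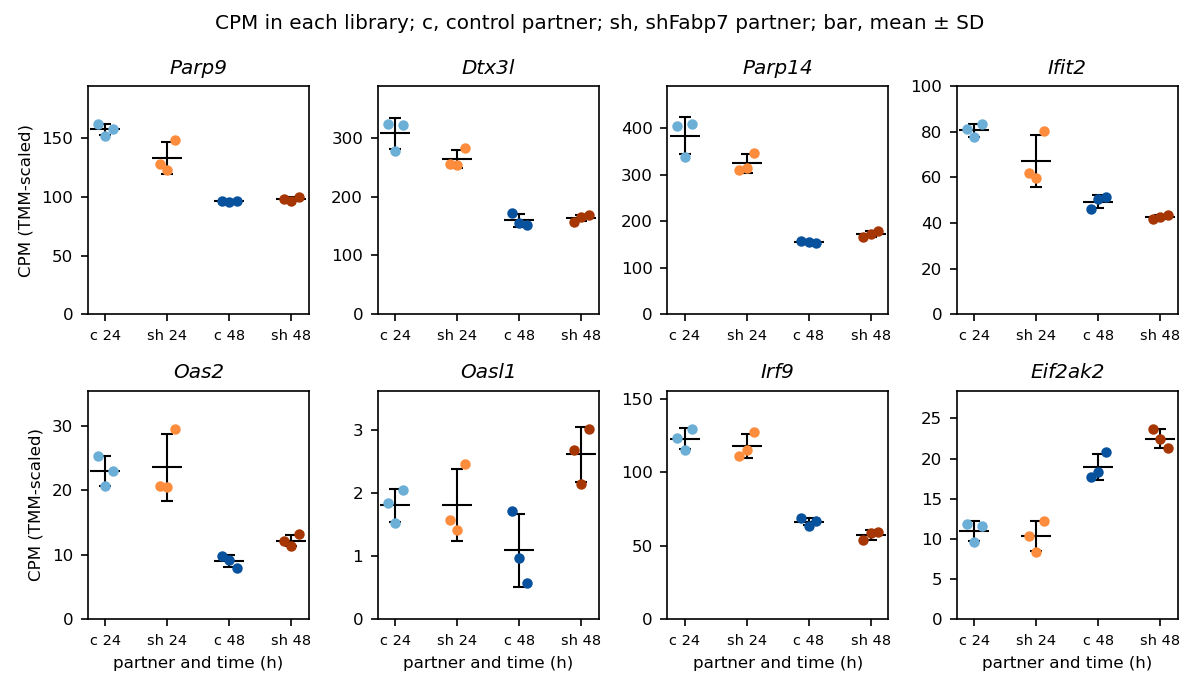
CPM in each of the 12 libraries for 8 members called between partners, by group (c, control partner; sh, shFabp7 partner), with bars at the mean ± SD. Oasl1 is higher in all 3 shFabp7 libraries than in all 3 control libraries at 48 h, Parp14 falls over time in both, and Eif2ak2 rises.

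Parp9, Dtx3l and Parp14 lie together in function: Parp9 and Parp14 belong to the ADP-ribosyltransferase family, and Dtx3l is the ubiquitin ligase that pairs with Parp9. All 3 were lower with the shFabp7 partner at 24 h. Parp9 was at 162, 152 and 158 CPM in the control group and at 128, 123 and 149 in the shFabp7 group at 24 h, and at 96.3, 95.6 and 96.7 against 98.1, 96.5 and 99.7 at 48 h. The groups did not overlap at 24 h and overlapped at 48 h. The difference at 24 h was -0.24 ± 0.06 (adjusted p = 0.0051), and at 48 h 0.03 ± 0.06.

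Dtx3l was at 323, 277 and 321 CPM in the control group and 256, 253 and 282 in the shFabp7 group at 24 h, and at 171, 154 and 152 against 157, 165 and 168 at 48 h. The groups overlapped at both times, at 24 h only through control replicate 2 and shFabp7 replicate 3, and the 24 h difference was -0.22 ± 0.06 (adjusted p = 0.0136).

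Parp14 was at 405, 337 and 409 CPM in the control group and at 311, 315 and 348 in the shFabp7 group at 24 h. At 48 h it was at 157, 154 and 152 against 167, 172 and 179. The 24 h groups overlapped, with control replicate 2 below shFabp7 replicate 3, and the 48 h groups did not. The partner difference was -0.24 ± 0.06 at 24 h (adjusted p = 0.00771) and 0.16 ± 0.06 at 48 h (adjusted p = 0.0395). The latter was lost with upper-quartile scaling and library totals alone, and in every fit without 1 library but the one without shFabp7 48 h replicate 1 (adjusted p up to 0.153). Over time Parp14 fell by 1.31 log2 units with the control partner and by 0.91 with the shFabp7 partner.

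The 24 h calls of these 3 genes depended on single libraries. All 3 were lost without control replicate 1 and without shFabp7 replicate 1 or 2, and Dtx3l and Parp14 also without control replicate 3. The adjusted p then reached 0.0967 for Parp9, 0.125 for Dtx3l and 0.0851 for Parp14.

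Of the other effectors, Bst2 (tetherin, which holds budding virus at the cell surface) was the member called higher with the shFabp7 partner at 24 h. It was at 93.6, 96.9 and 91.2 CPM in the control group and at 101, 106 and 120 in the shFabp7 group at 24 h, and at 65.4, 60.9 and 66.3 against 67.6, 70.5 and 72.0 at 48 h. The partners did not overlap at either time. The differences were 0.22 ± 0.06 (adjusted p = 0.0133) and 0.12 ± 0.06 (adjusted p = 0.106), and the first was lost without shFabp7 24 h replicate 3 (adjusted p = 0.0925).

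Ifi35, which binds the related protein Nmi, was at 92.1, 93.2 and 85.1 CPM in the control group and 84.3, 87.1 and 93.4 in the shFabp7 group at 24 h. It was at 43.6, 40.9 and 41.9 against 47.2, 48.9 and 50.3 at 48 h. Only the 48 h groups were apart, with a difference of 0.21 ± 0.06 (adjusted p = 0.00464) that was called in all 6 fits without 1 library and lost with upper-quartile scaling and library totals alone. Trim30a, a restriction factor, was at 213, 191 and 215 CPM in the control group and 171, 175 and 192 in the shFabp7 group at 24 h. Its 48 h values were 103, 115 and 117 against 105, 106 and 110. Both pairs of groups overlapped, the first by a narrow margin, and the 24 h difference was -0.20 ± 0.06 (adjusted p = 0.0178), lost in the same 4 fits without 1 library as Parp14 (up to 0.173). Reads shared with close Trim30 paralogs make its value uncertain.

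The other effectors differed mainly by time. Rtp4 fell by 2.12 and 1.93 log2 units. Ifi44 fell by 2.42 and 2.22 and the pro-apoptotic Xaf1 by 1.60 and 1.62 log2 units. Ifi27l2a was called in no comparison, with a partner difference of -0.49 ± 0.18 at 48 h (adjusted p = 0.0758) and no overlap of the groups there, and with time changes of 0.16 and 0.01.

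The Schlafen genes Slfn1 and Slfn5, growth regulators of T cells and antiviral factors, fell with both partners. Slfn5 was at 134, 119 and 159 CPM in the control group and 110, 107 and 150 in the shFabp7 group at 24 h, and at 49.6, 46.1 and 52.8 against 48.5, 47.9 and 53.0 at 48 h. The partners overlapped at both times, with differences of -0.16 ± 0.14 and 0.01 ± 0.15. Over time Slfn1 fell by 1.78 and 1.59 log2 units and Slfn5 by 1.47 and 1.30.

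The difference between the partner effects at the 2 times was tested directly. Parp9 (0.27 ± 0.08, adjusted p = 0.0401) and Parp14 (0.40 ± 0.08, adjusted p = 0.00392) were called, 2 of 37, where 5.6% of all genes were called, 4.43% higher and 1.17% lower. A positive value means that the shFabp7 partner's effect was higher at 48 h than at 24 h. No member was called lower (edgeR, 0 at an unadjusted p under 0.05 and 0 with DESeq2), and 7 members had an unadjusted p under 0.05. The direction over all genes moved with the scaling. The main scaling gave 750 genes higher and 199 lower (median 0.04), upper-quartile scaling 341 and 356 (-0.02), and library totals alone 446 and 275 (-0.001). Parp14 was called in 11 of 12 fits without 1 library and lost without shFabp7 24 h replicate 2 (adjusted p = 0.0512), and Parp9 was called in 2 of 12, those without shFabp7 24 h replicate 3 or control 48 h replicate 1 (adjusted p up to 0.352 in the others).

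In some groups 1 replicate was the highest or lowest in most members. The shFabp7 24 h replicate 3 was the highest of its group in 36 of 37 members, against 32.7% of all genes, with a median deviation of 0.26 log2 units from its group mean. Control 24 h replicate 3 was highest in 28 members, and control 24 h replicate 2 lowest in 30. At 48 h shFabp7 replicate 3 was highest in 28 members, against 34.6% of all genes, and shFabp7 replicate 1 lowest in 24. In the shFabp7 24 h group the same replicate was highest in 49 of 53 other interferon stimulated genes. Without it, 11 members were called between partners at 24 h, all lower with the shFabp7 partner, where 9.30% of all genes were called. Without replicate 3 of both 24 h groups, a choice made after the data were seen, 7 were called, all lower, and Bst2 was no longer among them, where 6.83% of all genes were called. Without control replicate 1 or shFabp7 replicate 2 a single member was called at 24 h, higher with the shFabp7 partner, where 5.45% and 7.27% of all genes were called. Without shFabp7 replicate 1 there were 2 members (5.98% of all genes) and without control replicate 3 there were 3 (8.23%).

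**Figure D4:**
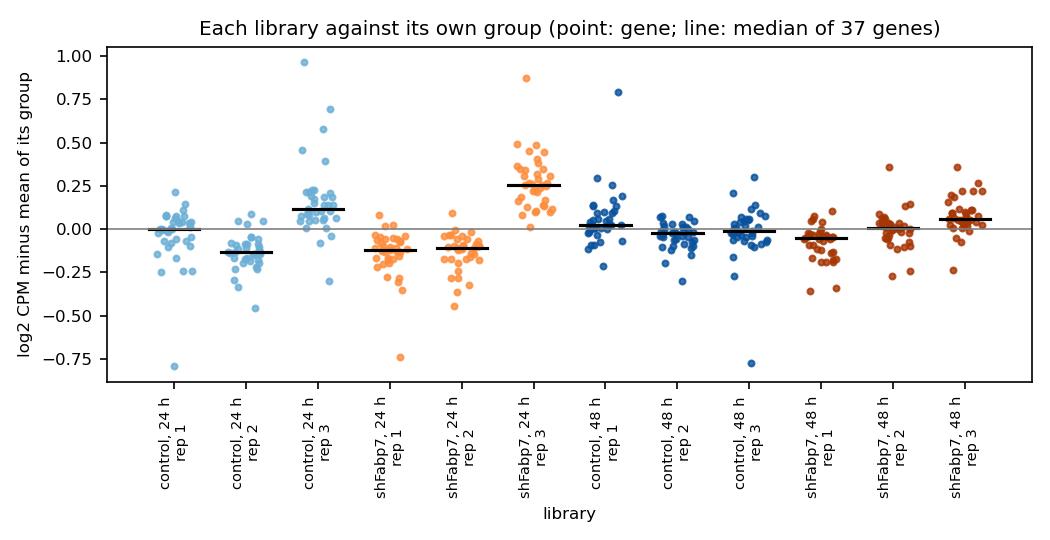
Deviation of each library from its group's mean, in log2 units, for the 37 members, with the median marked. The shFabp7 24 h replicate 3 has a median of 0.26, and the control 24 h replicates 2 and 3 lie on opposite sides of 0.

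**Figure D5:**
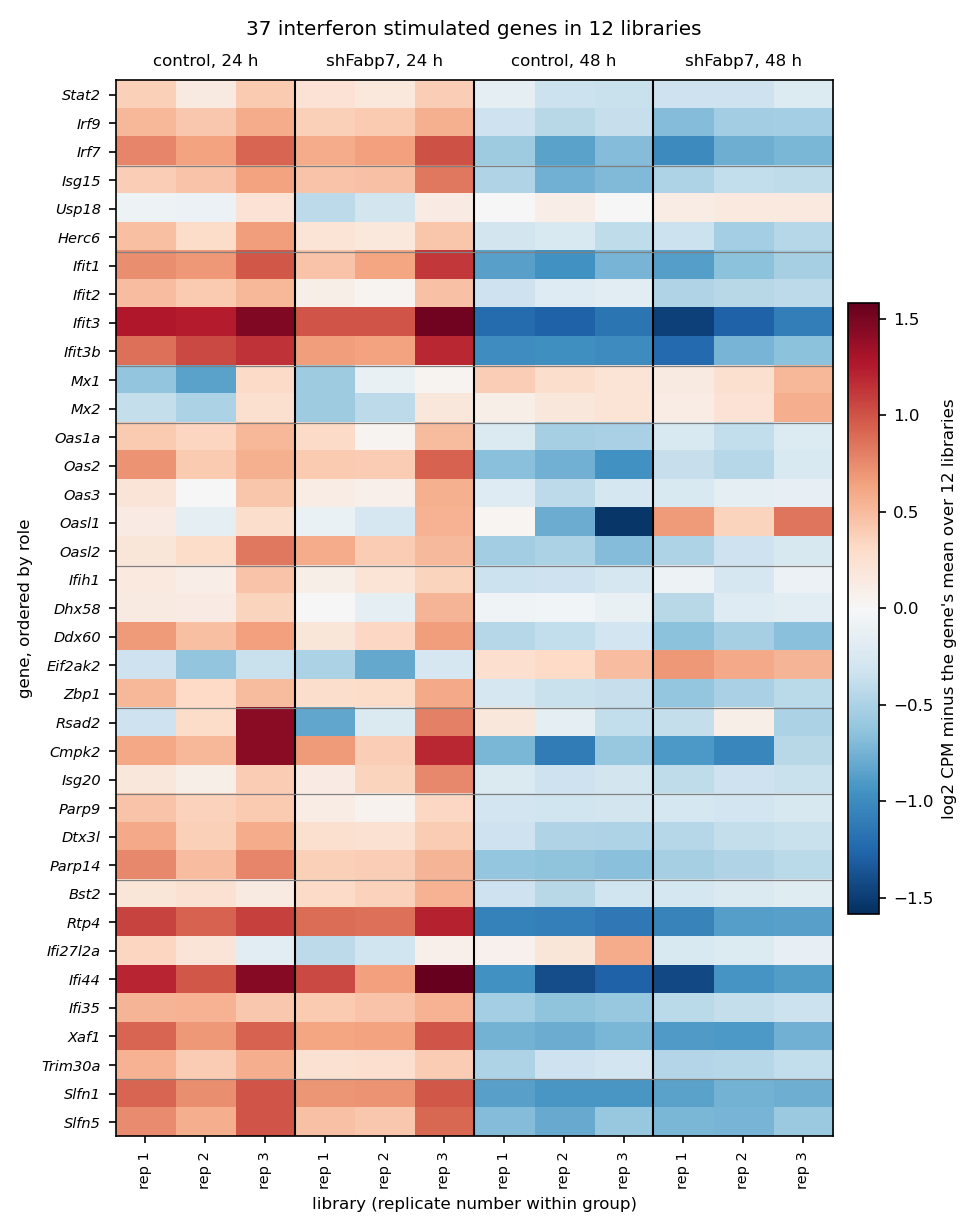
Log2 level of the 37 members relative to each gene's mean over the 12 libraries, with libraries in columns by group and members in rows by role. The 24 h columns are high and the 48 h columns low for most members, Eif2ak2 runs the other way, and the Mx genes show no such fall.

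Reads of the type I interferon genes were close to the detection floor of 3 counts. Of 20 type I and type III interferon ligand genes, 11 had no count in any library, and the other 9 summed to 37 counts over 12 libraries, with at most 6 in 1 library. Ifnb1 had 8 counts in all. Ifng, the type II interferon of T cells, was at 119, 141 and 113 CPM in the control group and 187, 198 and 160 in the shFabp7 group at 24 h. At 48 h it was at 268, 267 and 293 against 484, 465 and 468. The partners did not overlap at either time, with rises of 0.55 and 0.78 log2 units, and Ifng rose over time by 1.15 and 1.38 log2 units, while most members fell.

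Of 10 receptor and kinase genes, 4 were lower with the shFabp7 partner at 24 h and 5 at 48 h, where 4.65% and 11.6% of all genes were called lower, and none was higher (edgeR, 0 at an unadjusted p under 0.05 at either time; DESeq2 gave 0 and 1). Ifnar1 was lower by -0.23 ± 0.05 and -0.18 ± 0.05, and rose over time by 0.44 and 0.49. Ifnar2 differed by -0.01 at 24 h and was lower by -0.25 at 48 h. Ifngr1, the ligand-binding interferon gamma receptor chain, was lower by -0.42 and -0.48 and Ifngr2 by -0.23 and -0.24. Jak1 (-0.10 and -0.07) and Tyk2 (0.00 and -0.01) were not called between partners.

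Of 15 genes that sense nucleic acids or relay their signal to interferon genes, none was called at 24 h (edgeR; 2 at an unadjusted p under 0.05, 0 with DESeq2), and 7 were higher and 1 lower at 48 h. Of all genes, 6.22% were called higher and 4.65% lower at 24 h, and 19.9% higher and 11.6% lower at 48 h. At 48 h Ticam1, the adaptor of Tlr3, was higher by 0.39. Myd88, the adaptor of most Toll-like receptors, was higher by 0.33, and the DNA sensor Cgas by 0.30. Tlr3 was also called, on 3 counts over the control and 16 over the shFabp7 libraries, too few to give a fold. Of 13 tested negative regulators, 2 were lower at 24 h, and 6 were higher and 3 lower at 48 h, beside the same shares of all genes. Socs1, an inhibitor of Jak kinases, was higher by 0.31 at 48 h. Samhd1, a nucleotide hydrolase, was lower by -0.29 and -0.27, Pias1, a SUMO ligase, by -0.17 and -0.37, and Rnaseh2b, a subunit of RNase H2, was higher by 0.24 at 48 h.

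A wider list of 53 tested interferon stimulated genes shared the direction over time: 33 fell and 6 rose with the control partner, and 33 fell and 8 rose with the shFabp7 partner (medians -0.46 and -0.49). Of all genes, 32% and 30.2% were called lower over time and 35.8% and 35.9% higher. Between partners 6 of the list were lower and 1 higher at 24 h, where 4.65% of all genes were called lower and 6.22% higher. At 48 h 16 were lower and 5 higher, where 11.6% of all genes were called lower and 19.9% higher. Among the called genes of this list the largest partner effects at 48 h were those of Phf11b (-0.60), Phf11d (-0.59), Phf11a (-0.48) and Trim12c (-0.44), and reads shared among the close Phf11 paralogs make their single values uncertain. Among 20 interferon gamma targets, 13 were lower with the shFabp7 partner at 24 h, and 10 were lower and 1 higher at 48 h. The same shares of all genes stand beside these counts, and Ifng itself was higher. Ciita, the master regulator of MHC class II genes, was lower by -0.61 at 48 h, the chemokines Cxcl9 and Cxcl10 by -0.44 and -0.38, and the GTPase Gbp6 by -0.36. Over time 18 of the 20 fell with each partner, where 32% and 30.2% of all genes were called lower.

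Markers of other cells moved with the partner in part, beside the members' partner effects. The 8 dendritic cell markers summed to 232 to 282 CPM in the control libraries and 164 to 183 in the shFabp7 libraries at 24 h, and to 185 to 229 and 189 to 215 at 48 h. Most of that sum was Ccl22, a chemokine that activated T cells also make, and Cd209a had no count. Of the 5 tested, 2 were lower with the shFabp7 partner at 24 h and 1 at 48 h, and none was higher. The 7 plasmacytoid dendritic cell markers, of the main interferon alpha producing cell, summed to 84.9 to 92.5 against 73.0 to 81.4 CPM at 24 h and 107 to 112 against 72.6 to 78.9 at 48 h, mostly Pacsin1 and Ccr9. Siglech, the most specific of them, had 12 counts over the control group and 4 in the shFabp7 group at 24 h and 0 in all 6 libraries at 48 h, and Klk1 had 3, 1 and 0. The plasmacytoid sums did not overlap at either time, and 2 of 4 tested markers were lower at each, with none higher. The 8 epithelial markers, for carried-over partner cells, summed to 11.3 to 12.4 against 10.0 to 10.7 CPM at 24 h and to 7.60 at most against 4.70 to 6.13 at 48 h. The 7 neutrophil markers summed to 6.61 to 11.9 against 6.91 to 8.59 CPM at 24 h and to 4.81 to 9.54 against 3.21 to 4.63 at 48 h, where 2 of 5 tested were lower and the sums did not overlap. The 5 NK cell markers summed to 147 to 163 against 137 to 163 CPM at 24 h and to 142.9 to 159.9 against 138.7 to 142.7 at 48 h, where 1 of 4 tested was lower. Marker sums of monocytes and macrophages were 16.6 to 17.9 against 14.5 to 16.4 CPM at 24 h and 15.9 to 20.7 against 16.1 to 17.7 at 48 h. Those of B cells were 14.9 to 16.6 against 13.3 to 15.9, and 20.5 to 24.7 against 20.96 to 22.31. At 48 h 1 of 4 tested epithelial markers and 1 of 6 tested monocyte and macrophage markers were lower. Of all genes, 4.65% were called lower at 24 h and 11.6% at 48 h. The part of all these other cells in the members' values was not tested.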

How the data were processed

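The authors deposited unnormalized counts, 1 whole number for each gene symbol in each of 12 libraries. The tools they list in the submitters' processing notes are HTSeq 0.6.1p1, TopHat2 2.0.13 and CASAVA 1.8.2, and the build is GRCm39. The settings of these tools and the use of strand in counting are not given in the sources used here. Overlapping, antisense and near-identical genes may therefore have had reads mixed, split or dropped.

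Genes were kept with filterByExpr (minimum count 10, minimum total 15), scaled by TMM and tested with edgeR 4.0.16 quasi-likelihood (robust, 4 groups in 1 fit of 12 libraries) in R 4.3.3. Tests compared the partners (shFabp7 minus control) at each time, 48 h with 24 h with each partner, and the difference of the partner effects. The partner effects share no libraries with each other, nor do the time effects. The procedure was tested on simulated data. Alternatives were RLE and upper-quartile scaling, library totals alone, DESeq2 1.42.0, no filter, a filter at 1 CPM in at least 3 libraries with 100 counts in all, the compared groups alone, a replicate block, a minimum fold of 1.2, and the omission of each library. Omitting replicate 3 of both 24 h groups was chosen after seeing the data.

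The members and the other gene lists were chosen with earlier results of these data known. Values in every library are given, by role, for up to 3 members called between partners, or for the member with the largest difference where none was called, and always for Stat2, Irf9, Irf7, Isg15 and Usp18. Up to 4 called genes of each other list are named, and Ifnb1, Ifng, Ifnar1, Ifnar2, Jak1 and Tyk2 always, and 1 gene that this rule selects is not reported here. Exon lengths for CPM per kb came from a GRCm38 annotation by symbol, and promoter sequences and coordinates from RefSeq, build GRCm38.p6, for 27 members. Usp18, Mx1, Mx2, Oas2, Dhx58, Zbp1, Parp9, Parp14, Rtp4 and Ifi27l2a had no entry.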

Additional observations from a re-analysis of the deposited data

Results flagged for a closer look

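Parp9 and Parp14 were picked out because the partner effect differed between 24 h and 48 h by a direct test of the difference in edgeR. For Parp14 the effect moved by 0.40 log2 units (adjusted p = 0.00392), from lower with the shFabp7 partner at 24 h (-0.24) to higher at 48 h (0.16). For Parp9 it moved by 0.27 log2 units (adjusted p = 0.0401), from -0.24 to 0.03. The Parp9 call was lost with RLE scaling, upper-quartile scaling, library totals alone, no filter and a minimum fold of 1.2, and was kept in 2 of 12 fits that each left out 1 library. The Parp14 call was lost with the minimum fold and kept in 11 of those 12 fits. Its single partner effects were less stable: of 6 fits without 1 library, 2 kept the 24 h call and 1 the 48 h call. The 48 h call was also lost with upper-quartile scaling and library totals alone, and its log2 difference went as low as 0.07 with other scalings. These 2 of 37 members stand beside 5.6% of all genes called in the same test.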

How the results depend on the processing

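The counts over time stayed within 1.5 times the main ones (31 and 32) under all alternatives, between 28 and 35 members. With a required fold of 1.2 (edgeR's glmTreat) the partner effect gave 0 members at 24 h (0 at an unadjusted p under 0.05, against 6 with DESeq2 and no minimum fold) and 1 at 48 h, and the interaction 0 (2 unadjusted, 3 with DESeq2). The partner effect at 48 h gave 11 members without a filter and 11 from the compared groups alone, against 7. The interaction gave 1 member with RLE scaling, 1 with upper-quartile scaling and 1 with library totals alone, against 2, Parp9 being the one lost. Leaving out each library in turn gave 1 to 11 members for the partner effect at 24 h, 4 to 6 at 48 h, and 0 to 5 for the interaction, the 0 without shFabp7 24 h replicate 2 (edgeR; 7 unadjusted) and 5 without shFabp7 24 h replicate 3 or control 48 h replicate 1. Over time these omissions gave 30 to 32 members with the control and 29 to 34 with the shFabp7 partner. No called direction reversed in any alternative.

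Deviations of same-numbered libraries correlated at -0.13 to 0.04 in a check that was not limited to the members, which gave no sign of pairing. Among the members, replicate 3 was the highest of its group in 28 (control) and 36 (shFabp7) at 24 h. At 48 h it was the highest in 14 (control) and 28 (shFabp7). Pairing by replicate number among the members alone was not tested. With the replicate number as a block, 6, 8, 34, 33 and 3 members were called for the partner effect at 24 h and 48 h, time with the control and the shFabp7 partner, and the interaction.

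With 3 libraries per group, small partner effects were near the threshold. The low counts of Oasl1 limit its precision. The cause of the changes between settings was not tested.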
